A study of Mus musculus with 32 samples.

Results

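Marker genes of the choroid plexus and of blood vessels were followed through 16 lists of acetylated RNA peaks from mouse hippocampus. The 10 genes were Ttr, Clic6, Kcnj13, Folr1 and Aqp1 for the choroid plexus, Flt1, Cldn5 and Pecam1 for endothelial cells, and Myl9 and Pdgfrb for mural cells. Their peaks were taken as the rows whose gene symbol is one of these names, and there were 112 such rows of the 148981 rows in the 16 lists. The lists hold 13143 genes in all, and 8 of the 10 markers had at least 1 row. Ttr and Folr1 had none.

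The cytidines of RNA can carry an acetyl group, and cytidine so changed is called N4-acetylcytidine (ac4C). In acRIP-seq, RNA is broken into fragments of about 200 nt and captured with an antibody against ac4C, and a peak is a stretch where captured fragments pile up. The samples came from the hippocampus of C57BL6/J mice, which is the only genotype or strain label that all groups carry. For homogenate, taken on day 6, there were 3 C lists and 3 L lists, and for the synapse fraction 1 C list and 1 L list on each of days 1, 6 and 20. The peak names inside the files spell the groups as Control and Learning. A further set gave 2 control and 2 cKO lists, whose peak names read AAV-Cont and AAV-cKO. The labels used here do not name the deleted gene, the promoter that drives the deletion or the training task, and do not say whether the lists came from separate animals or pools, so p-values measure only the spread between lists.

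The choroid plexus is a sheet of epithelial cells over leaky capillaries that hangs into the brain ventricles, makes the cerebrospinal fluid and lies beside the hippocampus. Endothelial cells line the brain's vessels and are sealed by tight junctions, and mural cells, which are pericytes and smooth muscle cells, wrap around them. Growth factors of the VEGF family act on endothelial cells through receptors that include Flt1, while PDGF from endothelial cells recruits pericytes through Pdgfrb.

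Homogenate lists held 15182 to 16971 peaks in 8108 to 9174 genes, synapse lists 5586 to 7293 peaks in 3126 to 3781 genes, and the control and cKO lists 422 to 5132 peaks. The files give no read counts, so the depth behind each list is unknown, and a peak missing from a list may lie under the authors' threshold. Of the neuronal markers, 8 of 8 had a row in a homogenate list and in a synapse list. Of all 13143 genes, 12908 had a row in a homogenate list and 5572 in a synapse list. The neuronal count is thus no check of the tissue label. The file order of the synapse L list of day 6 stops at base 118984776 on chromosome 7, and all 10 markers lie before that point. Coordinates are those of mm10, and a gene's span is the stretch from its first to its last base in RefSeq's annotation of GRCm38.p6, the same assembly.

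Nearly all rows named for the markers were in homogenate. Of the 112 rows, 108 stood in homogenate lists, 4 in synapse lists, and 0 in the control or cKO lists. Homogenate lists hold 98293 of all 148981 rows, or 66.0%. The 3 C lists of homogenate held 5, 5 and 7 of the 10 markers, and the 3 L lists held 6, 5 and 6. Each list of both groups thus held between 5 and 7 of them. In the synapse, 1 marker was found in the C list of day 20 and 1 in the L list of day 1, and both times it was Pdgfrb. The other 4 synapse lists had none by symbol.

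**Figure D1:**
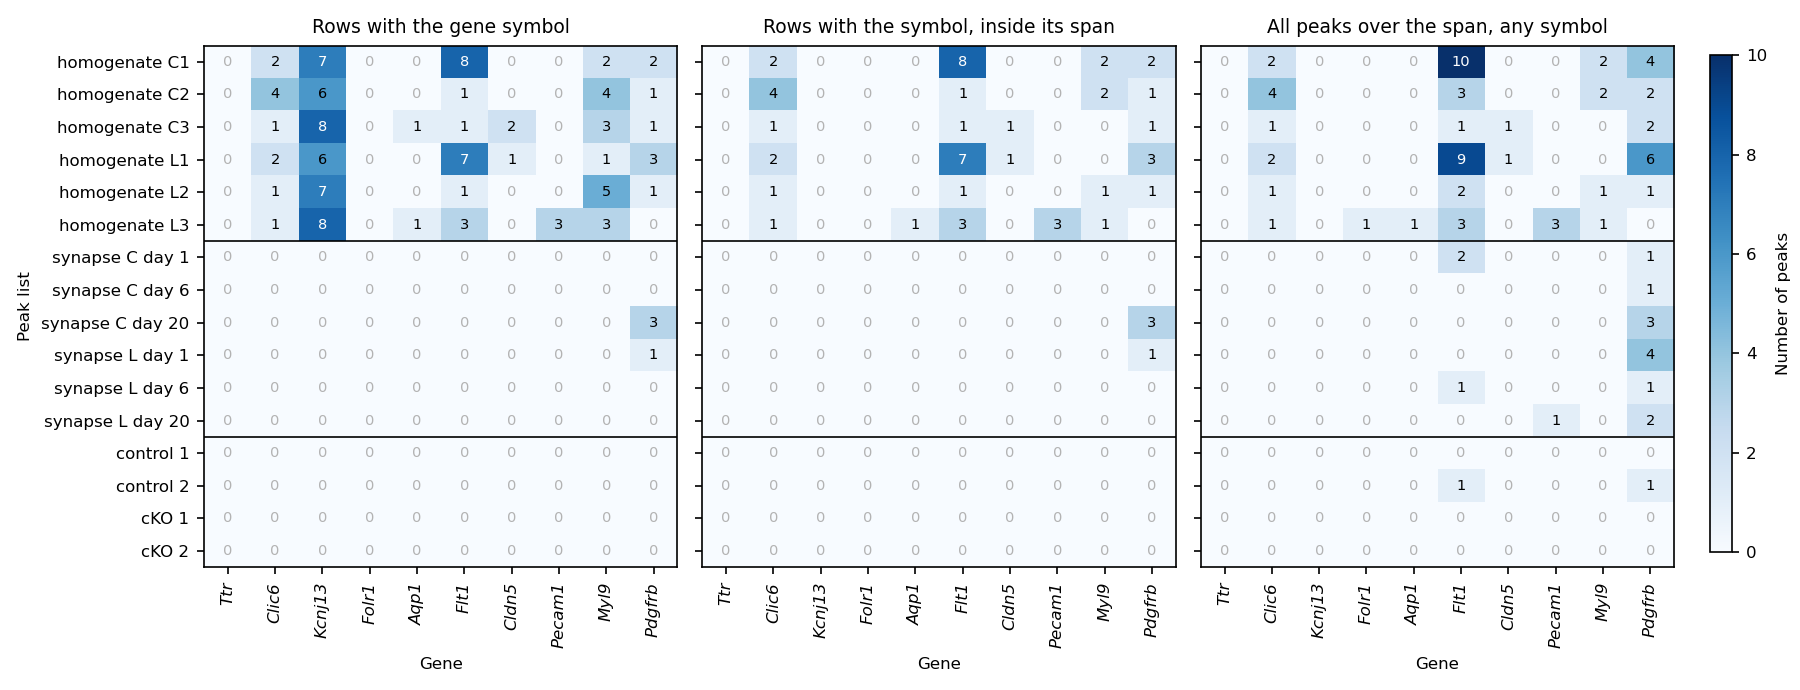
Number of peaks of each marker gene (columns) in each of the 16 peak lists (rows), counted by the gene symbol of the row (left), by the symbol and inside the gene's span (middle), and over the span whatever symbol the row carries (right). The column of Kcnj13 holds 6 to 8 peaks per homogenate list on the left and 0 in the middle, while that of Pdgfrb gains synapse peaks on the right.

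The name in a row and the place of its peak were not the same thing for these genes. Of the 112 rows, 56 overlapped the span of the gene they were named for, by at least 1 bp, and 56 did not, a share inside of 50% against 78.2% of all rows. Within homogenate it was 52 of 108, or 48.1%, against 75.9%. Kcnj13 supplied 42 of the 56 rows outside, and without it 56 of 70 rows, or 80%, were inside. The deposited symbol was that of the nearest start site in RefSeq's promoter table for 86 of the 86 rows of markers that have an entry there. Among the rows of all genes with an entry it was so for 98.4%. Rows of genes without an entry were left out of both shares. Values are therefore given by symbol, inside the span, and over the span whatever the symbol.

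Clic6, a chloride intracellular channel protein abundant in choroid plexus epithelium, had the peak with the highest rank of fold. Its span is chr16:92498147-92541241. By symbol it had 2, 4 and 1 peaks in the C lists of homogenate and 2, 1 and 1 in the L lists, and all 11 lay inside the span. One region, chr16:92498068-92499720, over the end of the span with the lower coordinate, recurred in all 6 homogenate lists.

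The authors' fold enrichment of that Clic6 peak was 51.3, 139 and 98.6 in the C lists and 24.4, 99.3 and 232 in the L lists. The 2 groups overlapped. Within each list the peak stood between percentile 97.7 and 99.5 of all folds, and its width was between 1314 and 1644 bp, against a median width of 301 to 445 bp over all peaks of the same lists. The other 4 regions of Clic6 had folds between 2.01 and 4.42, and 3 of them were in 1 list each. No row of any synapse, control or cKO list lay over Clic6.

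Kcnj13, an inward rectifier potassium channel of the choroid plexus, had the most rows of any marker, and none of its peaks lay in the gene. There were 7, 6 and 8 rows in the C lists of homogenate and 6, 7 and 8 in the L lists. All 42 lay outside its span, chr1:87384577-87394729, and all 42 lay inside that of Gigyf2, chr1:87326931-87450810, a gene within which the whole of Kcnj13 sits and whose protein is known for a part in the repression of translation. The Gigyf2 span held 56 peaks in all, of which 42 were named Kcnj13 and 14 were named Snorc, the symbol of a neighbouring gene. No row of any list was named Gigyf2.

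The rows named Kcnj13 formed 14 regions once overlapping peaks were joined, and 2 of the 14 were found in all 6 homogenate lists. These were chr1:87403531-87404018, with folds of 3.53 to 9.99, and chr1:87424872-87425414, with folds of 8.33 to 26.5. Another region, chr1:87428371-87428915, was in 5 lists, all but the C list numbered 3, with folds of 25.5 to 85.8 at percentiles 93.1 to 99.3. These 3 regions thus recurred at the same places in C and L. The centres of their peaks lay between -33915 and -9010 bp from the Kcnj13 start site, where minus means upstream. Other strong peaks under this name recurred less: chr1:87423029-87423474, with a fold of 65.8, was in the L list numbered 3 alone, and chr1:87421205-87421790, with folds of 16.7 and 20.7, was in 2 lists.

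Genes with this pattern were not rare. Of the 4572 genes with a row in all 6 homogenate lists, 237 (5.18%) had no row inside their own span in those lists, and among genes with at least 10 homogenate rows it was 225 of 3416 (6.59%). By the symbol alone Kcnj13 would count as a choroid plexus gene with recurrent peaks. By its span it had a peak in 0 of 16 lists.

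**Figure D2:**
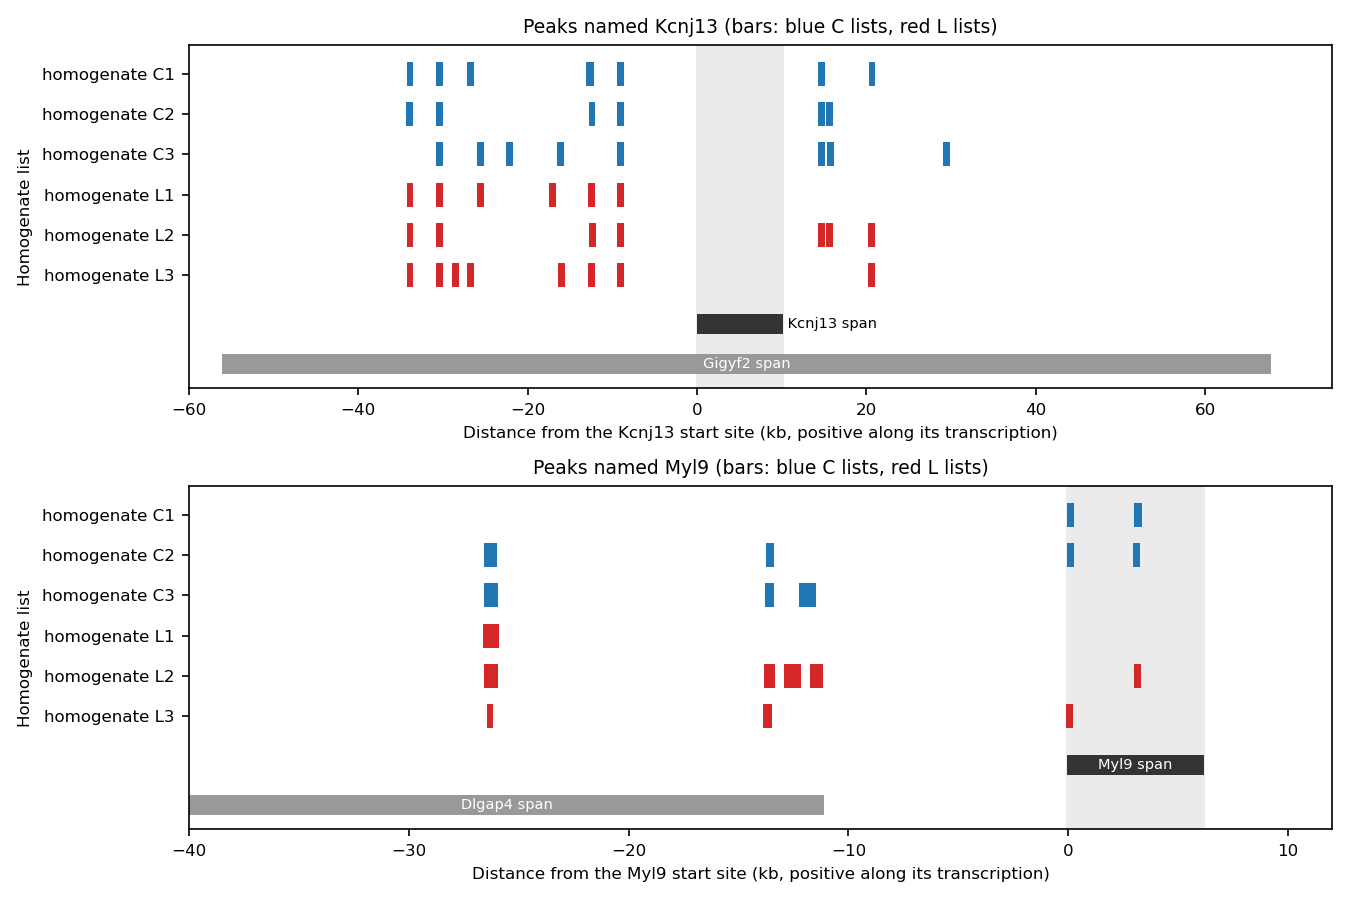
Peaks named Kcnj13 (top) and Myl9 (bottom) in the 6 homogenate lists, by distance from the gene's start site in kb (positive along its transcription), blue for C and red for L, with the spans of the named gene and of its neighbour below. The 42 peaks named Kcnj13 all lie in the Gigyf2 span and none in the shaded Kcnj13 span, and 12 of the 18 peaks named Myl9 lie in the Dlgap4 span.

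The other choroid plexus markers were seldom found. Aqp1, the water channel of the plexus epithelium that faces the ventricle, spans chr6:55336299-55348555 and had 1 row in the C list numbered 3 and 1 in the L list numbered 3. The first, chr6:55318914-55319142 with a fold of 8.0, lay upstream of the gene in the span of Mindy4. The second, chr6:55336567-55336788 with a fold of 17.8, lay inside Aqp1, so that 1 of 16 lists held a peak in the gene. Ttr, which codes for the thyroid hormone carrier transthyretin and is among the most abundant transcripts of the plexus, spans chr18:20664209-20674326 and had 0 peaks over it under any name. Folr1, the folate receptor alpha that carries folate into the fluid, spans chr7:101858331-101870788 and had none under its own name. A single peak named Folr2 touched its span, at chr7:101858632-101858831 in the L list numbered 3. Fewer cells of the plexus in a sample, less RNA of a gene per cell and less acetylation cannot be told apart in these bulk lists.

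**Figure D3:**
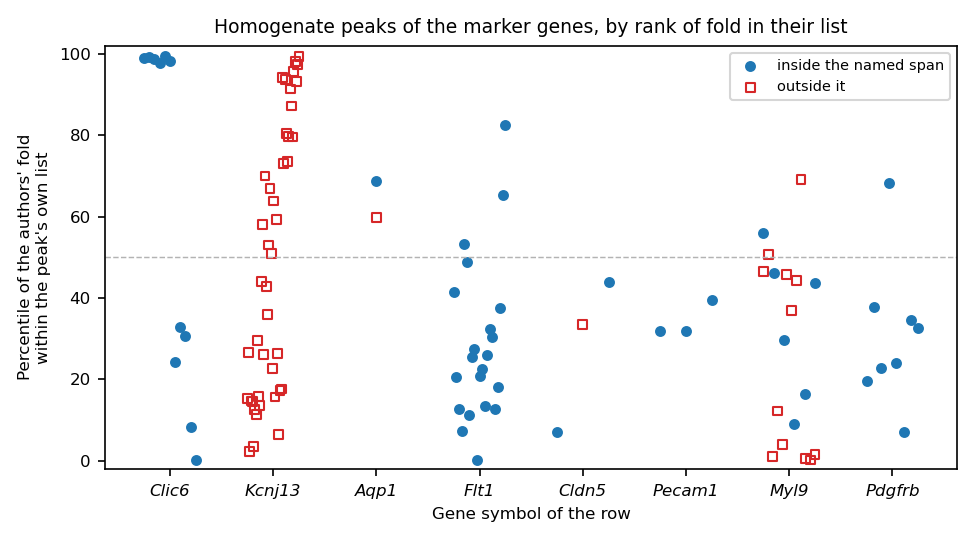
Percentile of the authors' fold within its own list for each homogenate peak of the markers, by gene symbol (x axis), as filled circles for peaks inside the span of the named gene and open squares for those outside it. The 6 peaks over the lower end of Clic6 lie between 97.7 and 99.5, and most peaks of Flt1 and Pdgfrb lie below the median of their list.

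Flt1, the VEGF receptor also called VEGFR1, was the one vascular marker with a peak inside its span in every homogenate list. Of the 11414 genes with such a peak in any homogenate list, 3696 (32.4%) had one in all 6, and Clic6 and Flt1 were the markers among them. Flt1 spans chr5:147561604-147726438, on the minus strand. By symbol the C lists held 8, 1 and 1 peaks and the L lists 7, 1 and 3, all 21 inside the span. Its peaks were spread over 13 regions, of which none was in all 6 lists and 6 were in 2 or 3. The gene was thus present in every homogenate list, with no stretch of its span common to all 6. Whether these stretches lie in exons or introns was not examined. Folds were low, with a median of 3.10 and a median percentile of 25.5.

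Flt1 peaks were most numerous in the lists of one number, in C and L alike. The C and L lists numbered 1 held 15 of the 21 rows, and the other 4 lists held 1 to 3 each. The L list numbered 1 by its label carries the number 2 in its peak names, so its number is in doubt. The same 2 lists had the lowest median fold over all peaks, 4.42 and 4.32 against 6.00 to 10.1 in the other homogenate lists. The part of this in the count of Flt1 peaks was not tested.

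A region over the start site of Flt1, chr5:147725527-147726082, was in both lists numbered 1 and in the C list numbered 2, with folds of 5.72, 3.63 and 16.5. Of the markers, Flt1 and Myl9 alone had peaks over more than 1 base of the window that RefSeq's table gives around a start site, from 250 bases before it to 50 after. The table held 5 of the 10 genes (Kcnj13, Myl9, Flt1, Aqp1 and Cldn5). Both gene spans begin further upstream than these start sites. From its start site, base 147726011, the Flt1 peak reached 147726082 in the C list numbered 2. It ended at 147726015 in the C list numbered 1 and at 147726011 in the L list numbered 1. The Myl9 peak, with a start site at 156775464, began at 156775415 in the L list numbered 3. In the C lists numbered 1 and 2 it began at 156775453. Both stretches before the start sites are shown because peaks ran into them, furthest in 1 list each. They are the 250 bases before the start site in RefSeq's GRCm38.p6, read along the transcript, with the bases under a peak of that gene in at least 1 list in capitals, 71 for Flt1 on chr5:147726012-147726261 (minus strand) and 49 for Myl9 on chr2:156775214-156775463 (plus strand).
Flt1: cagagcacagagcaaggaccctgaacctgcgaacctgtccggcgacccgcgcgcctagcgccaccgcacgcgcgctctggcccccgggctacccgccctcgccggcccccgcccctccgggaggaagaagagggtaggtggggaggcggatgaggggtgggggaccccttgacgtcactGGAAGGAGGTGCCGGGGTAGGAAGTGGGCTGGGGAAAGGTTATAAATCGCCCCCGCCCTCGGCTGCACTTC
Myl9: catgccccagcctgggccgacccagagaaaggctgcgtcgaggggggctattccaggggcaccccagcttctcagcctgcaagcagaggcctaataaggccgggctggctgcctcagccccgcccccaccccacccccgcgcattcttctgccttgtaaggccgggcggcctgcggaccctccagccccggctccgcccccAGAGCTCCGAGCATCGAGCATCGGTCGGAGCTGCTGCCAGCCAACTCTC

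The 300-base windows were rich in G and C, 70.7% for Flt1 and 68.3% for Myl9, against a median of 52.7% over 32851 windows of the table. Short motifs were searched on both strands after the sequences had been read. The Flt1 window held TGACGTCA, a motif bound by CREB-type factors, starting 81 bases before the start site, and 1.79% of all windows hold it. TATAAA, which 13.6% of windows hold, also stood there, starting 31 bases before the start site. It lay under the peak of the homogenate C list numbered 2 alone. The Myl9 window held a CArG box, the motif of serum response factor, as CCTAATAAGG starting 161 bases before the start site, and 1.63% of windows hold one. No base of either the TGACGTCA motif or the CArG box lay under a peak. These matches describe the letters and say nothing of binding.

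The 3' end of Flt1 carried peaks under another name. Over its span lay 11 more peaks named Pan3, after the neighbouring gene at chr5:147426208-147548501. They fell in 4 homogenate lists and also in the C list of the synapse on day 1 (2 peaks), its L list of day 6 (1 peak, fold 62.8) and the control list numbered 2 (1 peak). Counted over the span, Flt1 had a peak in 6 homogenate, 2 synapse and 1 control list.

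**Figure D4:**
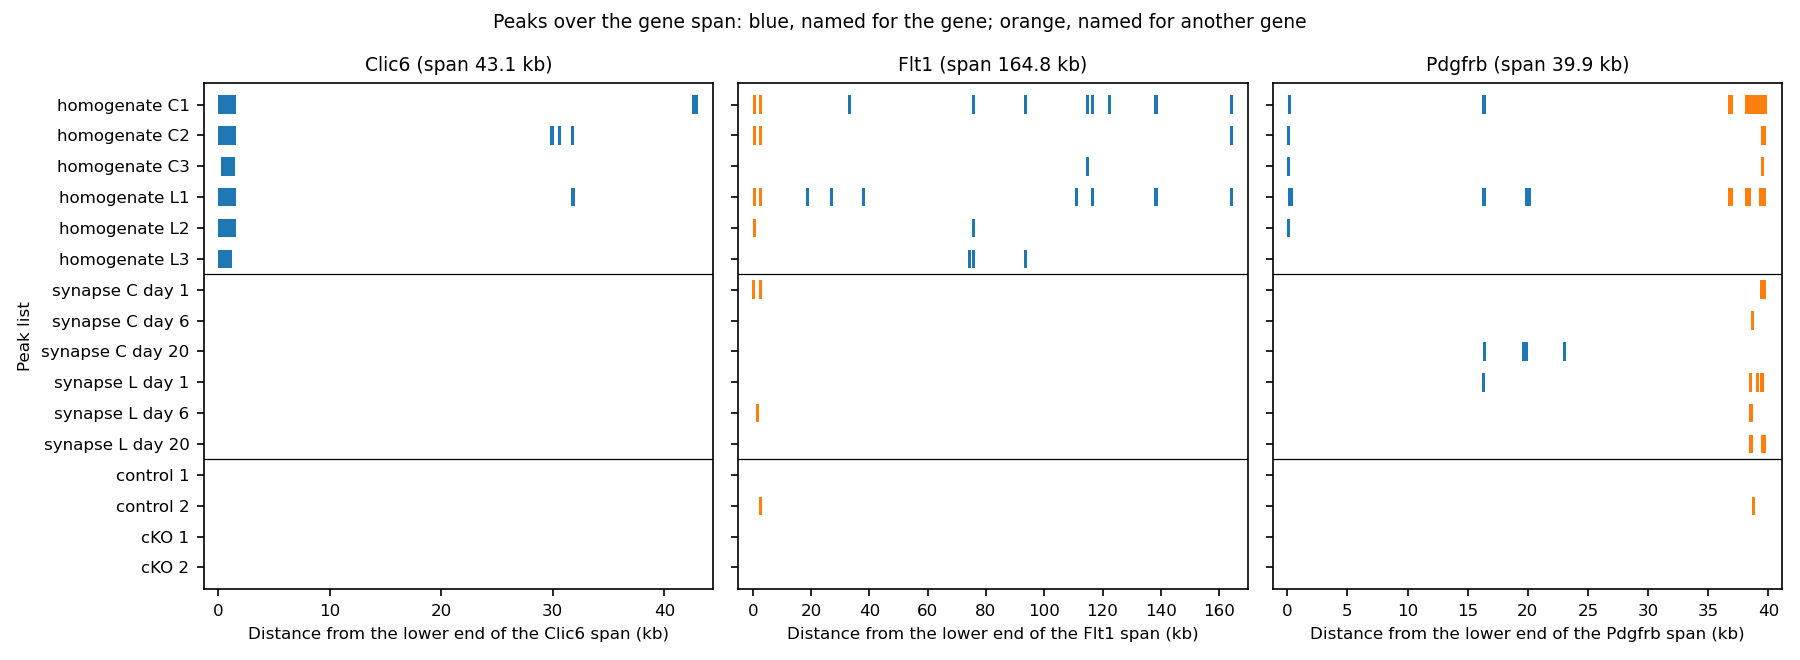
Peaks over the spans of Clic6, Flt1 and Pdgfrb in each of the 16 lists, by distance in kb from the end of the span with the lower coordinate, blue where the row is named for the gene and orange where it is named for another. Clic6 shows 1 wide peak at the lower end in all 6 homogenate lists, and the synapse peaks over Flt1 (at its 3' end) carry the name of its neighbour, as do most of those over Pdgfrb.

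Cldn5 and Pecam1 were rare. Cldn5, the main claudin of the tight junctions of brain endothelium, spans chr16:18776847-18778262. It had 2 peaks in the C list numbered 3, 1 inside at chr16:18776940-18777214 (fold 5.60) and 1 that ended 343 bp before the span. The L list numbered 1 had 1 wide peak, chr16:18776896-18777966, with a fold of 2.30. Pecam1, the adhesion protein CD31, spans chr11:106654213-106715281 and had 3 peaks inside it with folds of 6.16 to 7.50, all in the L list numbered 3. That list had the highest median fold of the homogenate lists, 10.1, and the shortest median width, 301 bp. A single peak named Tex2 lay over the Pecam1 span in the synapse L list of day 20.

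Myl9, a regulatory light chain of the myosin of smooth muscle, had a row in every homogenate list and a peak inside the gene in 4 of the 6. It spans chr2:156775408-156781657. By symbol the C lists held 2, 4 and 3 rows and the L lists 1, 5 and 3. Inside the span the C lists held 2, 2 and 0 peaks and the L lists 0, 1 and 1. The 6 inside fell into 2 regions, each in 3 lists. The first was chr2:156775415-156775652, over the start site, with folds of 4.17 to 11.8, and the second was chr2:156778442-156778815, with folds of 2.68 to 5.27.

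The other 12 Myl9 rows lay in the span of the neighbour Dlgap4, chr2:156613633-156764363, whose protein is a scaffold of the postsynaptic density. The most frequent region under the name Myl9, chr2:156748859-156749552 in 5 homogenate lists, was one of these. The Dlgap4 span held 41 peaks in all, 29 of them named Dlgap4, and 10 of the 41 were in synapse lists. None of the synapse peaks over Dlgap4 was named Myl9.

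Pdgfrb, the PDGF receptor of pericytes, was the one marker with rows in synapse lists. It spans chr18:61045127-61085067. The C lists of homogenate held 2, 1 and 1 rows and the L lists 3, 1 and 0, while the synapse held 3 in the C list of day 20 and 1 in the L list of day 1. All 12 lay inside the span. A region at its start, chr18:61045129-61045606, was in 5 homogenate lists, with folds of 3.56 to 5.82, and in no synapse list. The region chr18:61061321-61061686 was in the first C and L lists of homogenate and in the same 2 synapse lists, with folds of 2.10 to 6.46. The region chr18:61064648-61065353 was in the L list numbered 1 of homogenate and in the C list of the synapse on day 20. Homogenate and synapse peaks thus shared these 2 stretches, and the region at the start was seen in homogenate lists alone.

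Counted over the span whatever the symbol, Pdgfrb had a peak in every synapse list. A further 16 peaks lay over the end of its span with the higher coordinate and were named Csf1r, after the microglial receptor gene that follows at chr18:61105572-61131139. With them, 5 of 6 homogenate lists, 6 of 6 synapse lists, 1 of 2 control lists and 0 of 2 cKO lists held a peak over Pdgfrb. In the synapse the peaks named Csf1r had folds of 2.16 to 23.0. Peaks over the Pdgfrb span covered 1107 bp ± 1272 per homogenate list and 587 bp ± 285 per synapse list (SD, n = 6 each), a difference smaller than the spread (exact two-sided permutation test, p = 0.422, adjusted p = 0.579).

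The first comparison set L against C in homogenate on day 6, which asks whether peaks differ with learning. No marker differed beyond the spread between lists. The number of markers with a row was 5.67 ± 1.15 in the C lists and 5.67 ± 0.577 in the L lists (SD, n = 3 each). The bases covered by peaks of Clic6 were 2159, 2734 and 1314 in C and 1998, 1573 and 1330 in L, and the difference of L minus C was -435 bp (exact permutation p = 0.50). For Kcnj13 the rows covered 3671, 2914 and 3251 bp in C and 2768, 3168 and 3734 bp in L (exact p = 0.80). In both genes the groups overlapped.

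Flt1 covered 4387, 467 and 200 bp in the C lists and 4102, 416 and 864 bp in the L lists (exact p = 0.90). By symbol Myl9 covered 543, 1422 and 1794 bp in C and 694, 2852 and 886 bp in L (exact p = 0.80). Inside its span it covered 543, 488 and 0 bp in C and 0, 277 and 200 bp in L (exact p = 0.40). The difference of L minus C was 224 bp by symbol and -185 bp inside the span. Pdgfrb covered 676, 211 and 200 bp in C and 1218, 202 and 0 bp in L (exact p = 0.90). In these genes too the groups overlapped, and by symbol the spread within a group was larger than the difference. Aqp1, Cldn5 and Pecam1 gave p = 1 each by the same exact test. With 3 lists against 3 no p can fall below 0.10. Of 12908 genes, 35 (0.271%) had a row in all L lists and no C list and 27 (0.209%) in all C lists and no L list, and 0 of the markers were among either. The covered bases of the 2 groups did not overlap for 475 genes (3.68%), again with 0 of the markers.

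In the synapse, L was set against C on days 1, 6 and 20, with 1 list each and no replicate check. Pdgfrb was the only marker with a row, in the L list and not the C list of day 1, in neither on day 6, and in the C list and not the L list of day 20. The mean difference over the 3 days in the number of markers was 0 ± 1 (SD over days).

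Synapse was next set against homogenate. Homogenate was sampled on day 6 alone and the synapse on 3 days, so fraction and day are partly confounded. By symbol, Clic6, Kcnj13, Flt1 and Myl9 had a row in 6 of 6 homogenate lists and 0 of 6 synapse lists, and each was higher in homogenate. Mean covered length there was 1851 bp ± 554 for Clic6, 3251 bp ± 391 for Kcnj13, 1739 bp ± 1954 for Flt1 and 1365 bp ± 866 for Myl9 (SD, n = 6). Each of the 4 had p = 0.00216, the smallest that 6 lists against 6 allow, and an adjusted p of 0.0113 (exact two-sided permutation test, Benjamini-Hochberg over 13115 genes). Many genes did the same: 4528 of 13115 (34.5%) were higher in homogenate and 30 (0.229%) in the synapse. Without any 1 of the 6 synapse lists the first count was 2650 to 2958. A list of the synapse named 23.8% to 28.8% of all genes and a homogenate list 61.7% to 69.8%, and the part of that in the difference was not tested.

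The other 4 markers with a row missed the threshold, with adjusted p values from the same exact test of 0.584 for Aqp1 and Cldn5, 1 for Pecam1 and 0.436 for Pdgfrb. On day 6 alone, 2219 of 13026 genes (17%) had a row in all 6 homogenate lists and neither synapse list, the 4 markers among them, and 21 (0.161%) had the reverse, with 0 markers. With 6 lists against 2, no gene passed after adjustment (0 of 13026 in either direction by the exact test, with 1908 at an unadjusted p under 0.05). Of all 13143 genes, 7421 (56.5%) had by symbol a row in homogenate and in no synapse, control or cKO list, and 7 of the 8 markers with a row were among these. Over the span whatever the symbol, 2 of these 7 had synapse peaks, Flt1 in 2 lists and Pecam1 in 1.

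When peaks were counted over a gene's span whatever their symbol, a way chosen after the names had been examined, the picture changed for several genes. Clic6 kept its difference (adjusted p = 0.00988, exact permutation over 12613 genes), and the difference of synapse minus homogenate was -1976 bp for Flt1 (adjusted p = 0.0177). For Myl9 it was -251 bp and missed the threshold (adjusted p = 0.117 by the same exact test). Kcnj13 had no value, while Gigyf2, whose span its rows lay in, covered 4233 bp ± 453 in homogenate and 0 in the synapse (exact test, adjusted p = 0.00988). By this count 4922 of 12613 genes (39%) were higher in homogenate. Flt1 also lost its call by symbol when any 1 of the 6 synapse lists was left out, with adjusted p values of 0.113 to 0.120.

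The last comparison set cKO against control. None of the 10 markers had a row by symbol in any of the 4 lists, so no difference could be measured. Over the spans, the control list numbered 2 held 1 peak over Flt1 and 1 over Pdgfrb, and the cKO lists held 0. The cKO lists were short, with 1887 and 422 peaks against 4446 and 5132 in the controls. Of 4188 genes in this set, 1414 (33.8%) had a row in both controls and neither cKO list and 42 (1%) the reverse, with 0 markers in either. With 2 lists against 2 the exact test cannot reach the threshold.

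Further markers of the same cell types were read from lists drawn up for this work. Of 30 other choroid plexus genes, 26 had a row in homogenate and 9 in all 6 homogenate lists, and 6 had one in a synapse list. Of the 26 tested, 11 (42.3%) were higher in homogenate by the test over all genes, against 34.5% of all genes tested, and 0 in the synapse, with a median difference of synapse minus homogenate of -342 bp against -309 bp over all genes. The ion carriers Slc12a2, the sodium, potassium and chloride cotransporter, and Atp1b1, a subunit of the sodium pump, were in 16 and 15 of the 16 lists. Both are also made by other brain cells. Car12, a carbonic anhydrase, and Igf2, a growth factor of the plexus, were in all 6 homogenate lists and in 3 and 1 synapse lists, and Ace, the angiotensin-converting enzyme, was in 5 and 4.

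Of 34 endothelial genes, 24 had a row in homogenate, 2 in all 6 lists and 6 in a synapse list, and 11 of 25 tested (44%, against 34.5% of all genes) were higher in homogenate (median -294 bp). The 2 in all 6 were Tjp1 and Ocln, both tight junction proteins. Tjp1 was also in 5 synapse lists, while Ocln was in 0. Slc2a1, the glucose carrier of the blood-brain barrier, was in 5 homogenate and 4 synapse lists, Podxl, a sialomucin of the vessel lining, in 5 and 5, and Cd34 in 4 and 2. Of 20 mural genes, 15 had a row in homogenate and 2 in a synapse list, and 3 of 16 tested (18.8%, below the 34.5% of all genes) were higher in homogenate (median -219 bp). Anpep and Mcam, surface proteins of pericytes and smooth muscle, were in all 6 homogenate lists, but Anpep had a row inside its span in 2 of the 6 and Mcam in 0. Cspg4, the proteoglycan NG2, which pericytes are not alone in making, was in 5 homogenate lists. Lmod1 and Myh11, proteins of the contractile apparatus, were in 4 each.

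Of 17 genes of the VEGF, PDGF and angiopoietin pathways, 14 had a row in homogenate, 5 in all 6 lists and 6 in a synapse list. Of these, 4 of 14 tested (28.6%, against 34.5% of all genes) were higher in homogenate (median -253 bp). The ligands Vegfa and Pdgfa were in 14 lists each, all 12 of homogenate and synapse among them. Vegfa covered 3155 bp per homogenate list and 955 bp per synapse list (adjusted p = 0.0113), and Pdgfa 2075 and 641 bp (adjusted p = 0.0204, exact permutation). The receptor Nrp2 was in 12 lists, with 859 and 536 bp (adjusted p = 0.228, exact permutation). Pdgfra, a receptor of oligodendrocyte precursors, was in 11 lists and was higher in homogenate (adjusted p = 0.0113, exact permutation), and the ligand Vegfb was in 9. The other 8 of the 14 had no synapse row.

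**Figure D5:**
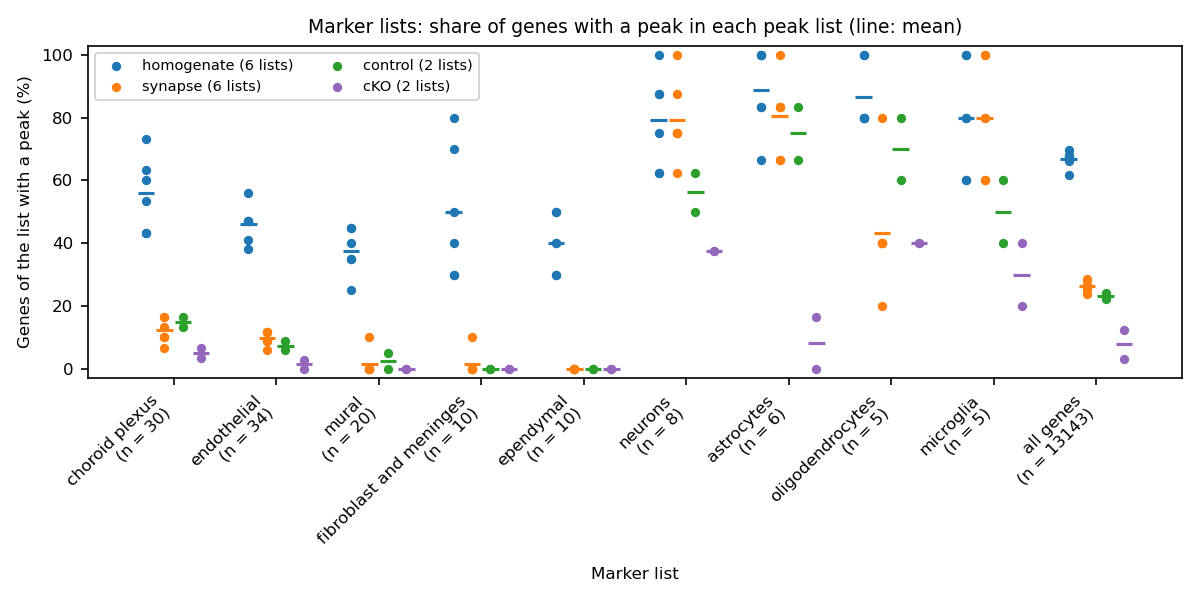
Percent of the genes of each marker list that had a row in each peak list (points) and its mean (short lines), for 6 homogenate, 6 synapse, 2 control and 2 cKO lists. Genes under "all genes" were counted only if they had a row somewhere, which does not hold for the marker lists, so the levels of the 2 kinds are not comparable. The choroid plexus list runs from 43.3% to 73.3% in homogenate and from 6.67% to 16.7% in the synapse, while the neuronal list runs from 62.5% to 100% in both.

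Markers of other cells were counted the same way, and their counts of genes higher in homogenate stand beside 34.5% of all genes. Of 10 fibroblast and meninges genes, 8 had a row in homogenate and 1 in a synapse list, and 4 of 8 tested were higher in homogenate, among them Islr, which was in all 6 homogenate lists. Of 10 ependymal genes, 8 had a row in homogenate and 0 in the synapse, and Foxj1, a regulator of motile cilia, was the 1 of 8 tested that was higher in homogenate. Neuronal markers were higher in homogenate in 2 of 8 and those of astrocytes in 1 of 6. Those of oligodendrocytes were higher in 3 of 5 and those of microglia in 0 of 5. By symbol, each gene of these 4 lists had a row in both fractions. Inside the span each still had one in homogenate, and in the synapse it was 8 of 8, 6 of 6, 4 of 5 and 5 of 5. Among the microglial genes, P2ry12 had a row inside its span in 2 of its 11 lists and Csf1r in 8 of 12. Of 5 genes of red blood cells, 1 had a row, Hba-a2, in 4 homogenate lists. The summed level of a cell type's RNA was not measured in these lists, so its part in the rows of the markers was not tested.

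The pattern of presence over the 16 lists was compared among the markers and the further choroid plexus, vascular and pathway genes by the Jaccard index, which is the number of lists shared over the number in either. By symbol, Clic6, Kcnj13, Flt1 and Myl9 had the same pattern as each other, with 6 of 6 lists shared (index 1). Their places differed: inside the span Kcnj13 had a peak in 0 homogenate lists and Myl9 in 4. Over its span, whatever the symbol, Flt1 also had peaks in 2 synapse lists and 1 control list. The pattern by symbol, a row in the 6 homogenate lists and no other, was shared by 9 of the further genes (Anpep, Igfbp2, Kl, Mcam, Msx1, Ocln, Pdgfc, Slc4a5 and Trpv4) and by 1853 of all 13143 genes (14.1%). Inside the span, Mcam had a row in 0 homogenate lists, Anpep in 2 and Trpv4 in 4, and the rest of the 9 in all 6. For Pdgfrb the closest were Eng and Mfsd2a, with 5 of 7 lists shared (index 0.714). The genes of one list share its depth and threshold, and 4572 of 12908 genes (35.4%) were in all 6 homogenate lists by symbol.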

How the data were processed

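Trizol-extracted RNA was fragmented and captured with an ac4C RIP kit, and input was kept aside, per the labels' protocols. The submitters' processing notes name cutadapt 1.9.3, HISAT2 2.0.4, FastQC and the build mm10. Which peak caller was used is not given in the sources used here. For each peak of 16 captured libraries the authors deposited, per the file headers, a gene symbol, a score, a fold enrichment ratio and the -log10 of a p-value and of a q-value. The inputs have no list used here. The deposited strand is plus in every row and was not used.

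Of 13302 deposited names, 214 were updated through RefSeq synonyms and 151 stayed unmatched, which left 13143 genes. A peak was inside a gene when it overlapped its RefSeq span by at least 1 bp. Overlapping peaks of a marker were joined into regions. Covered bases are the union of a gene's peaks in a list and were tested by exact permutation of lists (two-sided), adjusted by Benjamini-Hochberg over all genes, with a call at an adjusted p under 0.05. Python 3.11.15, pandas 2.3.3, numpy 2.4.6, scipy 1.17.1 and matplotlib 3.10.9 were used.

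The marker genes and the further lists were chosen with earlier results of these data known. The text names all 10 markers, up to 5 genes per further list with a row in the most lists, and the 2 genes closest in presence to each marker found in at least 3 lists. It also names all further genes that shared the pattern of Clic6, and neighbours whose span or name the peaks met. The labels do not say that replicate numbers pair the homogenate samples, and the exact tests of L against C used no pairing. Lists of the same number deviated together from their groups in which genes they held (correlations of 0.314, 0.221 and 0.116 over 12908 genes). Correlations of lists of different numbers are not given beside these, so a pairing is not settled. The peak names of the first L list carry the number 2, so these correlations rest on the labels' numbers.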

Additional observations from a re-analysis of the deposited data

How the results depend on the processing

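Peaks were restricted to a fold of 5 or more, a -log10 p of 10 or more, a width of 200 or 500 bp or more, or a place inside the span, taken over the span whatever the symbol, or counted in place of bases, and day 6 was used alone or 1 list left out. The number of markers in the synapse on day 6 minus homogenate was -5.67, and -4.17 at a fold of 5, -3.17 at 500 bp, -4.17 inside the span, -2.83 over the span whatever the symbol and -4.67 without Kcnj13 (chosen after seeing the data). Without 1 list it ran from -5.8 to -5.4. The difference of L minus C ran from -0.333 to 0.667 in homogenate and from -0.5 to 0.5 in the synapse. For cKO minus control it stayed 0 without 1 list and was -1 over the span. Regions in at least 2 lists fell from 27 to 9 at a fold of 5.

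Genes higher in homogenate, 4528, numbered 1640 at a fold of 5, 898 at 500 bp, 2012 by the number of peaks, 0 on day 6 and 2650 to 5148 without 1 list. Genes higher in the synapse, 30, numbered 6 at a fold of 5, 11 at 200 bp, 0 at 500 bp, 14 by the number of peaks, 0 on day 6 and 14 to 29 without 1 list. Genes in all L lists alone, 35, numbered 14 at 500 bp and 78 to 153 without 1 list, and those in all C lists alone, 27, numbered 17 at a fold of 5 and 51 to 128. Genes in both controls and neither cKO list, 1414, numbered 516 at a fold of 5, 108 at 500 bp and 1424 to 2053 without 1 list, and the reverse, 42, numbered 17 at 200 bp, 3 at 500 bp and 51 to 400. Genes in all homogenate lists and neither synapse list of day 6, 2219, numbered 1131 at a fold of 5, 844 at 500 bp and 2272 to 2832 without 1 list, and the reverse, 21, numbered 63 at a fold of 5, 9 at 200 bp, 1 at 500 bp and 23 to 71 without 1 list. Leaving out a list eases a rule on all lists by construction, and the cause of the other shifts was not tested.

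Kcnj13 and Clic6 missed the threshold on day 6 alone (exact adjusted p = 0.244), where fewer assignments exist. Flt1 and Myl9 missed it there (0.382), at a fold of 5 (0.162 each) and at 500 bp (0.655 and 0.168), and Myl9 also inside its span (0.132) and over it (0.117). For Pdgfrb, synapse minus homogenate was 38.8 bp at a fold of 5 (exact adjusted p = 0.986), the reverse of -239 bp with all peaks. With the replicate number as a block, the difference in markers (0 for L minus C and for cKO minus control) and the counts of 35, 27, 1414 and 42 are the same by construction, so the replicate block tests nothing here. In the cKO set lists of the same number correlated at 0.0384 over 4188 genes and share only a number.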
